A study of Mus musculus with 8 samples.

Results

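Sphingolipids are membrane lipids built on a long-chain amino alcohol, and ceramide stands at the centre of their metabolism. The 32 genes described here encode enzymes and regulators of that pathway, chosen by name as a list and found in the deposited count table by symbol. All 32 were among its 39179 genes. Acer2 has a pair of rows there, of which 1 holds no count, and the other was used. Each of the 32 genes passed the filter on low counts. The list was chosen with earlier results of these data known, so this is no result about the pathway. Relatives with no counts, such as Cers1, Sptlc3 and Acer1, are not on it.

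Serine palmitoyltransferase (SPT) in the endoplasmic reticulum joins serine to a fatty acyl-CoA, and a reductase, the ceramide synthases and a desaturase turn the product into ceramide. Ceramide then receives a head group and becomes sphingomyelin, glucosylceramide and larger glycolipids, or ceramide 1-phosphate. Hydrolases take these back to ceramide and sphingosine, which is phosphorylated to sphingosine 1-phosphate, a signalling lipid that is cleaved by a lyase as the exit of the pathway. In tumour biology ceramide is best known for its links to growth arrest and cell death, and sphingosine 1-phosphate for its links to survival and migration.

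The libraries held polyA RNA from GFP-labelled epithelial cancer cells of the mouse pancreas, of a mixed FVB/B6 strain. Every library of both arms carried p48Cre, ROSA_rtTAL+ and p53L+ in its genotype, in which Cre is driven by the p48 (Ptf1a) promoter of the pancreas. The cells had been co-cultured for 72 h with RFP-labelled pancreatic stellate cells in 0.5% dialyzed serum and were then sorted by colour. The 4 libraries of one arm came from cultures with 20 µg/mL of a neutralizing antibody against sonic hedgehog (SHH), and the 4 libraries of the other arm had no SHH antibody. The labels name no control antibody, no doxycycline and no clone, and give a biological n of 4. The comparison shows how transcript levels in the cancer cells differ between cultures with and without this antibody.

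Each library assigned 10009711 to 15733280 counts to genes, and all 4 antibody libraries were deeper than all 4 others (two-sided exact permutation p = 0.0286, or 0.2 adjusted over 7 library measures, n = 4 each, which is the smallest p this design allows). The 8 epithelial and ductal markers, keratins among them, were all detected. They took 0.733% to 0.783% of counts with antibody and 0.672% to 0.781% without. The 12 stellate and fibroblast markers took 0.00259% to 0.00527% and 0.00262% to 0.00463%, and 10 of the 12 had counts. Col1a1 had 101 to 287, Col1a2 74 to 317, Col3a1 12 to 99 and Pdgfra 32 to 75 counts per library, and Dcn and Lum had none. Among leukocyte, endothelial and acinar markers, Cd68 had 48 to 86, Cdh5 121 to 209 and Cela1 34 to 58 counts per library. None of these sets held a called gene. Of the 5 stellate markers tested, Pdgfra was called as lower (log2 fold change -0.84). Col1a1 (0.36), Col1a2 (0.47), Col3a1 (0.66) and Pdgfrb (0.61) had positive log2 fold changes and were not called (adjusted p 0.156 to 0.473). Of the 8 epithelial markers Epcam was called as higher. Their part in the results was not tested. Replicate 1 without antibody stood apart from its arm. It differed from the other 3 libraries by a chi-square per degree of freedom of 8.68 to 10.5, where the other pairs of that arm gave 1.75 to 4.37 and pairs of the antibody arm 1.68 to 3.52. In the same library 6.48% of counts came from the mitochondrial genome, against 4.10% to 5.02% in the other 7.

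With the antibody, 4 of the 32 transcripts rose and none fell. They were Sptssb, a small subunit of SPT, the sphingomyelin synthase genes Sgms1 and Sgms2, and the ceramide kinase gene Cerk (adjusted p under 0.05 in the quasi-likelihood test of edgeR, with the Benjamini-Hochberg method over 13626 genes). The 4 are 12.5% of the list, where 4.53% of all genes tested were called as higher, 3.87% as lower and 8.4% in either direction. At unadjusted p under 0.05 there were 8, of which Sptlc1 and Ormdl3 lay below zero. The share of all genes at this unadjusted threshold was not counted, so the 8 cannot be set against the shares above. DESeq2 and limma (voom) also called 4 as higher and 0 as lower, with 1026 and 1138 genes called in either direction over all genes. The median log2 fold change of the list was 0.04, that of all genes tested 0.00. The arms did not overlap in 5 of the 32 (15.6%), all with the antibody arm above, where 14.3% of all genes did so in either direction, 7.71% with the antibody arm above and 6.56% with it below. These shares describe a list chosen with earlier results of these data known, and carry no test of their own. In sorted bulk RNA, a change in the number of cells that express a gene and a change per cell cannot be told apart.

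**Figure D1:**
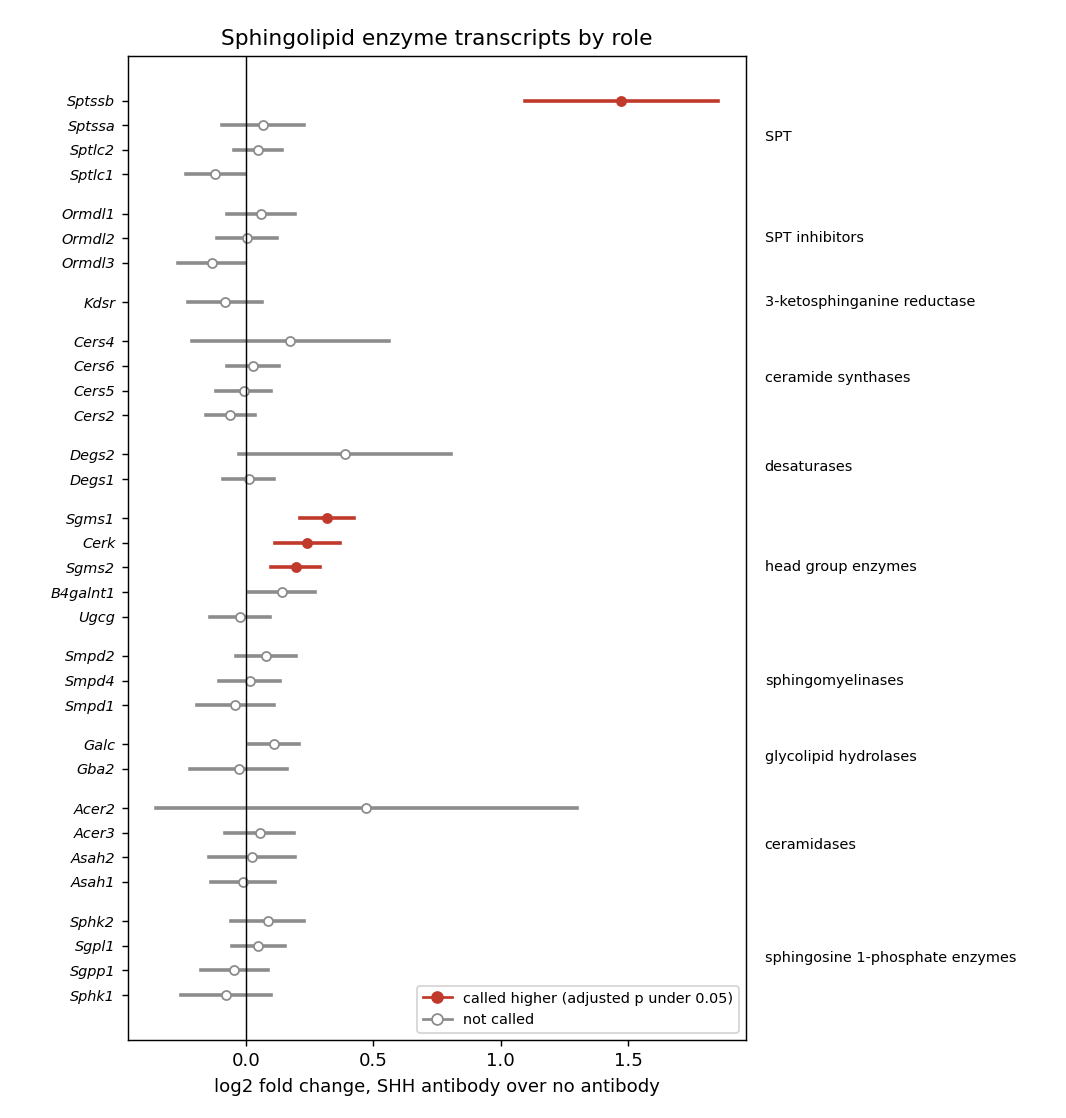
Log2 fold change of each of the 32 transcripts, SHH antibody over no antibody, with its unadjusted 95% interval, grouped by role. Sptssb lies far to the right of the other transcripts at 1.47, and the 3 other filled points, Sgms1, Cerk and Sgms2, are all head group enzymes.

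Serine palmitoyltransferase is the entry of the pathway. Its core is a pair of the large subunits SPTLC1 and SPTLC2, and a small subunit, either SPTSSA or SPTSSB, raises its activity and shapes which acyl-CoA it takes. SPTSSB is known for favouring a longer acyl-CoA than SPTSSA does. Of these 4 genes Sptssb rose. It stood at 4.50, 5.59, 4.80 and 3.83 CPM (counts scaled to the library total with TMM factors) in antibody replicates 1 to 4 and at 1.56, 1.60, 1.59 and 1.92 CPM without. The lowest antibody library therefore lay well above the highest library without antibody. The mean was 4.68 ± 0.731 against 1.67 ± 0.167 CPM (SD, n = 4 each). The fold was 2.78, with a 95% interval from 2.14 to 3.61 (adjusted p = 1.33e-05). The level is low, 57 to 88 counts per library with antibody and 16 to 28 without. Sptssb (ENSMUSG00000043461) lies on the minus strand of chromosome 3, from 69819538 to 69859896 in GRCm38, and none of its exons overlaps an exon of another gene in GENCODE M21.

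The other subunits were not called. Sptssa stood at 66.4, 63.8, 70.9 and 66.2 CPM with antibody and at 74.7, 53.7, 56.6 and 68.6 CPM without. The antibody libraries lay inside the range of the others, and replicates 1 and 4 without antibody were its high values. Its fold was 1.05, with an interval from 0.94 to 1.17 (adjusted p = 0.673). Without these 2 libraries, which leaves 2 in the arm, Sptssa was called as higher (log2 fold change 0.27, adjusted p = 0.000939, or 0.000939 to 0.996 over 20 other settings). Leaving out the high values of that arm raises the fold by itself, so this call is no support for a rise. Sptlc2, the catalytic subunit, ranged from 198 to 205 CPM and from 189.6 to 206 CPM (adjusted p = 0.586). Sptlc1 ranged from 44.7 to 48.2 CPM and from 47.02 to 53.1 CPM, and its log2 fold change of -0.12 ± 0.06 (SE) did not pass (adjusted p = 0.214).

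Per gene length, in the authors' RPKM (reads scaled by gene length and library size), Sptssa was the main small subunit transcript in both arms. Sptssb made up 4.92%, 6.27%, 4.92% and 4.22% of the summed RPKM of both small subunits in antibody replicates 1 to 4. Without antibody it made up 1.57%, 2.23%, 2.10% and 2.09%. Sptssa thus exceeded Sptssb 19.1-fold on average with antibody and 50.04-fold without, and the shares of the arms did not overlap.

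The promoters of both small subunit genes are shown because Sptssb had the largest fold of the 4 that rose and Sptssa is its counterpart. Each is the stretch of 250 bases before the RefSeq start (GRCm38.p6, minus strand, 5′ to 3′), chr3:69859895-69860144 for Sptssb and chr12:54656573-54656822 for Sptssa. Capitals mark a GC box (GGGCGG) or a CCAAT box.
Sptssb: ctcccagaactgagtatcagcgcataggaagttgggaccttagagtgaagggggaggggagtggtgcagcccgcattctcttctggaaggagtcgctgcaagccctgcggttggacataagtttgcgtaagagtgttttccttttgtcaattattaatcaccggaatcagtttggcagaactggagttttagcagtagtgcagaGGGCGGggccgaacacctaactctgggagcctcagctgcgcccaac
Sptssa: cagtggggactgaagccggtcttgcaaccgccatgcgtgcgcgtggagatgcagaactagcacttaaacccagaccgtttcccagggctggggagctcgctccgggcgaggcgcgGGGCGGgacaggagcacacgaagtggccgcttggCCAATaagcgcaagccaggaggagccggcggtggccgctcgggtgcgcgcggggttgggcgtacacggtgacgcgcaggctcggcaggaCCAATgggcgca
The Sptssb stretch holds 9 CG dinucleotides, more than 59.7% of the 32851 promoters in the RefSeq table, and the Sptssa stretch 28, more than 92.4% of them. Both hold 1 GC box. The Sptssa stretch holds 2 CCAAT boxes and the Sptssb stretch none.

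Promoters of 30 of the 32 genes were matched by symbol, all but B4galnt1 and Asah1, taking the start nearest to the gene's start in the count table. That start lay within 100 bases for 21 of them. Which start the cells use was not measured. The GC box was found in 21 of the 30 stretches (70%), against 32.7% of all promoters, and the CCAAT box in 10 (33.3%, against 33.8%). The 30 stretches held a median of 18.5 CG dinucleotides, against 6 over all promoters, which include those of genes not expressed here, and the GC box share was not compared at matched CG content. The AP-1 site TGANTCA was found in 2, Asah2 and Acer3 (6.67%, against 6.75%), though the Asah2 stretch lies 41671 bases from the gene's start in the count table, and the TATA box TATAAA in Sphk1 (3.33%, against 12.4%). The GLI site TGGGTGGTC, the sequence bound by the transcription factors of the hedgehog pathway, was in none of the 30 stretches and in 0.225% of all promoters. The ATF4 composite site TGATGNAAT was likewise in none, against 0.816%. Motifs were searched on both strands, none overlapped another in the printed stretches, and a missing match says only that these letters are not in the window.

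The ORMDL proteins hold SPT back when ceramide is plentiful. Ormdl1 (34.0 to 35.6 CPM with antibody, 30.4 to 36.7 without) and Ormdl2 (52.5 to 56.9 and 49.6 to 56.9) had log2 fold changes of 0.06 and 0.00. Ormdl3 stood at 29.2, 28.8, 29.6 and 27.7 CPM with antibody and at 32.5, 33.0, 29.04 and 31.97 CPM without. Only replicate 3 without antibody fell into the range of the antibody libraries. The log2 fold change of Ormdl3 was -0.13 ± 0.06 SE, which did not pass (adjusted p = 0.225). Ormdl2 shares 1114 exon bases with Dnajc14 on the other strand, and since the strand setting of the counting is not given its level is uncertain. Kdsr, the reductase that follows SPT, ranged from 51.8 to 55.4 CPM and from 48.3 to 66.2 CPM (adjusted p = 0.554).

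None of the 6 ceramide synthase and desaturase genes was called. Ceramide synthases attach the second acyl chain, and each prefers certain chain lengths. Cers2, which makes very long-chain ceramides, stood at 349, 352, 355 and 369.6 CPM with antibody and at 386, 375, 378 and 349.5 CPM without. Replicate 4 without antibody lay inside the antibody range and the other 3 above it, with a fold interval from 0.90 to 1.02 (adjusted p = 0.487). It was the most abundant of the 32 transcripts per length, at 97.4 ± 2.09 RPKM with antibody and 101 ± 3.83 without (SD, n = 4 each). It made up 75.5% ± 0.674 and 76.4% ± 0.492 of the summed RPKM of Cers2, Cers4, Cers5 and Cers6. Cers5 and Cers6, which make ceramides with shorter chains, had fold intervals from 0.92 to 1.07 and from 0.95 to 1.09. Cers4 had 27 to 50 counts per library, and its interval was wide, from 0.86 to 1.48.

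DEGS1 sets the double bond that makes ceramide from dihydroceramide, and DEGS2 also adds a hydroxyl group to make phytoceramide. Degs1 stood at 140 to 159 CPM over the 8 libraries, with a fold interval from 0.94 to 1.08. Degs2 stood at 3.60, 3.81, 5.13 and 3.62 CPM with antibody and at 3.20, 1.60, 3.93 and 3.42 CPM without. The arms overlapped, with replicate 2 without antibody the lowest. The fold of 1.31 had an interval from 0.98 to 1.75 (adjusted p = 0.271). Degs2 shares 278 exon bases with Evl on the other strand, which had 7538 counts over the 8 libraries against 397 for Degs2. The level of Degs2 is uncertain for the same reason as that of Ormdl2.

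Of the 5 head group genes, 3 rose, where 4.53% of all genes tested were called as higher. The genes were chosen with earlier results of these data known, so this count is no test of the role. Sphingomyelin synthases transfer phosphocholine from phosphatidylcholine to ceramide, SGMS1 in the Golgi and SGMS2 mainly at the plasma membrane. Sgms1 stood at 62.7, 65.4, 66.7 and 65.4 CPM with antibody and at 53.6, 50.4, 51.6 and 52.7 CPM without. Both arms were tight and far apart, with means of 65.1 ± 1.69 and 52.1 ± 1.40 CPM (SD, n = 4 each). The fold was 1.25, with an interval from 1.16 to 1.34 (adjusted p = 0.000245). Sgms1 (ENSMUSG00000040451, minus strand of chromosome 19, 32122727 to 32389714, GRCm38) shares 10 exon bases with 2700046G09Rik on the other strand, which had 109 counts in all against 6506.

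Sgms2, the more abundant synthase, rose as well. It stood at 376, 407, 409 and 406 CPM with antibody and at 344, 340.1, 353 and 358 CPM without. The arms did not overlap, and antibody replicate 1 came nearest to the other arm. The fold was 1.14, with an interval from 1.07 to 1.22 (adjusted p = 0.00866). Per length Sgms2 stood at 68.1 ± 2.42 and 59.1 ± 1.68 RPKM, and Sgms1 made up 8.51% ± 0.133 of the RPKM of both synthases with antibody and 7.85% ± 0.218 without (SD, n = 4 each). Sgms2 (ENSMUSG00000050931, minus strand of chromosome 3, 131318985 to 131344940, GRCm38) shares no exon base with another gene. RefSeq lists 6 starts for Sgms2 and 4 for Sgms1, so no promoter is shown for them.

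Cerk encodes the kinase that makes ceramide 1-phosphate, a lipid linked to arachidonate release. It stood at 34.9, 36.5, 37.1 and 38.5 CPM with antibody and at 29.6, 31.1, 32.9 and 30.8 CPM without. Every antibody library lay above replicate 3, the highest library without antibody. The means were 36.7 ± 1.48 and 31.1 ± 1.35 CPM (SD, n = 4 each), a fold of 1.18 with an interval from 1.08 to 1.29 (adjusted p = 0.0152). This call was lost without antibody replicate 3 (adjusted p = 0.053), without antibody replicate 4 (adjusted p = 0.0668) and when replicates 1 and 4 without antibody were both left out (adjusted p = 0.0536). It held in 17 of 20 other settings, over which the adjusted p ran from 0.0109 to 0.0668. Cerk (ENSMUSG00000035891) lies on the minus strand of chromosome 15, from 86139128 to 86186141 in GRCm38, and the antisense gene Gm15569 that overlaps it had 0 counts. The promoter of Cerk, which like Sptssb has a single RefSeq start, is chr15:86186142-86186391 (GRCm38.p6, minus strand, 5′ to 3′).
Cerk: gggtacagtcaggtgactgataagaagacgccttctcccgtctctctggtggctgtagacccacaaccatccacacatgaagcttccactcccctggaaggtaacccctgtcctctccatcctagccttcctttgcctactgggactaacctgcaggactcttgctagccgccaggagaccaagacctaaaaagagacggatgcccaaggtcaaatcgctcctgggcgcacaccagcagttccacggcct
It has no capitals because none of the 6 motifs searched occurs in it, and it holds 7 CG dinucleotides, more than 53.7% of all promoters.

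**Figure D2:**
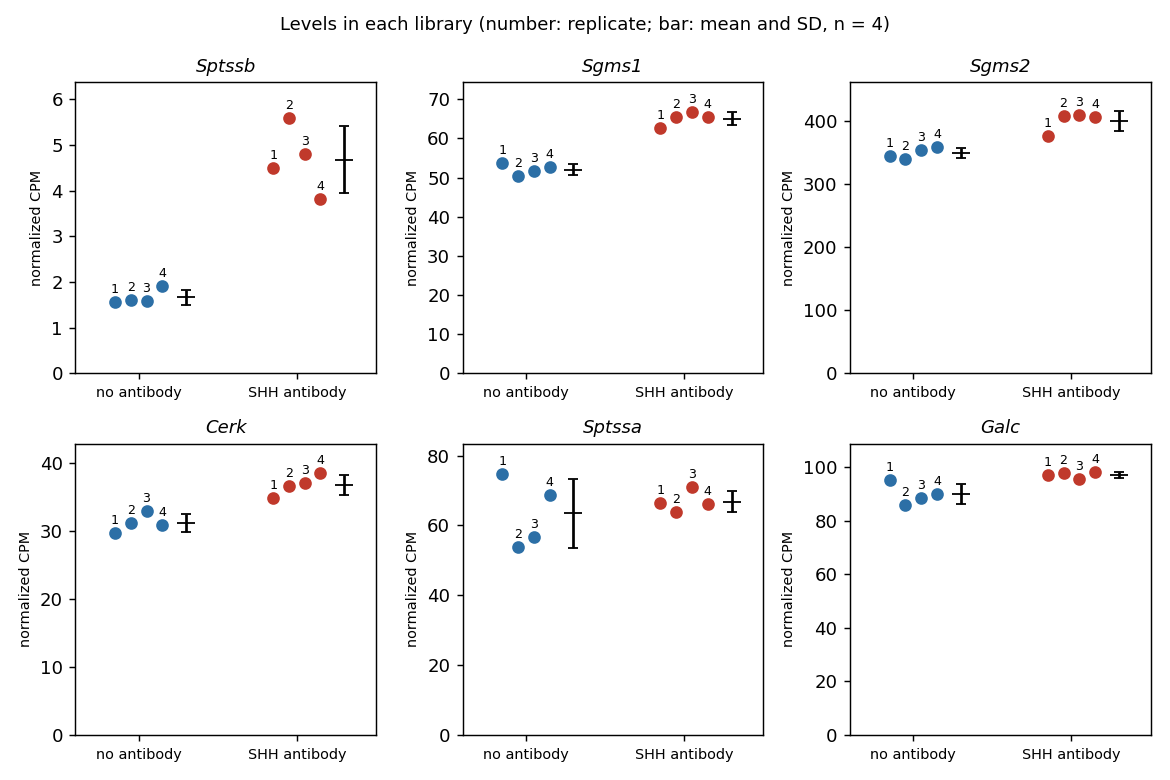
CPM of the 4 transcripts that rose and of Sptssa and Galc in each library, by arm, with replicate numbers, the mean and the SD. The arms are separate for Sptssb, Sgms1, Sgms2, Cerk and, narrowly, Galc, and for Sptssa replicates 1 and 4 without antibody lie above replicates 2 and 3.

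The remaining head group genes were not called. Ugcg, which makes glucosylceramide and so opens the route to most glycosphingolipids, ranged from 274 to 293 CPM with antibody and from 262 to 318 CPM without. Its fold interval ran from 0.91 to 1.07. B4galnt1, a ganglioside synthase, stood at 56.2, 54.1, 58.4 and 52.9 CPM with antibody and at 48.2, 52.1, 55.5 and 45.8 CPM without. The arms overlapped, and the log2 fold change of 0.14 ± 0.06 SE did not pass (adjusted p = 0.177). B4galnt1 shares 715 exon bases with Slc26a10 on the other strand, so its level is uncertain for the same reason as that of Ormdl2.

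None of the 5 genes of the list for hydrolases that return complex lipids to ceramide was called. The sphingomyelinase genes Smpd1 (lysosomal), Smpd2 and Smpd4 (neutral) had log2 fold changes of -0.04, 0.08 and 0.01. Gba2, a glucosylceramidase outside the lysosome, had a fold interval from 0.86 to 1.12. The levels of Smpd2 and Gba2 are uncertain for the same reason as that of Ormdl2. Smpd2 shares 905 exon bases with Mical1 on the other strand, and Gba2 shares 133 with Creb3 and 159 with Rgp1, which had 3421 and 7571 counts in all against 1603 for Gba2. Galc, the lysosomal galactosylceramidase, stood at 97.1, 97.7, 95.6 and 98.3 CPM with antibody and at 95.1, 86.03, 88.6 and 90.03 CPM without. The arms did not overlap, but replicate 1 without antibody lay just under the antibody libraries. The log2 fold change of Galc was 0.11 ± 0.05 SE (adjusted p = 0.174). Leaving out no-antibody replicate 1 gave a call as higher (0.14, adjusted p = 0.0489), and so did leaving out replicates 1 and 4 (0.15, adjusted p = 0.0221). These were the 2 of 20 other settings with a call, over which the adjusted p reached 0.342. Replicates 1 and 4 held the highest Galc values of that arm, so leaving them out raises the fold by itself.

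Ceramidases cut ceramide into sphingosine and a fatty acid, and none of the 4 was called. Asah1, the lysosomal acid ceramidase, was the second most abundant transcript of the list per length, at 78.7 ± 1.36 and 78.7 ± 8.52 RPKM (SD, n = 4 each). It stood at 310, 239.6, 252 and 271 CPM in replicates 1 to 4 without antibody and at 261, 267, 264 and 274 CPM with it. The antibody libraries thus lay inside the range of the others, and replicate 1 was the high value. Asah1 had a log2 fold change of -0.01, and 0.11 (adjusted p = 0.0346, or 0.0346 to 0.986 over 20 settings) without replicates 1 and 4 of the arm without antibody. Acer3, an alkaline ceramidase, stood at 53.4, 57.03, 59.5 and 55.8 CPM with antibody and at 61.6, 48.3, 50.8 and 56.0 CPM without. The antibody libraries lay inside the range of the others. Acer3 was called as higher in 1 setting, without the same 2 libraries (0.19, adjusted p = 0.0307, or 0.0307 to 0.979 over 20 settings). For Asah1 and Acer3 these 2 libraries were the highest of their arm, so leaving them out raises the fold by itself. Asah2, the neutral ceramidase, had a fold interval from 0.90 to 1.14. Acer2, the Golgi ceramidase, was the lowest per length, with 11, 22, 5 and 19 counts with antibody and 6, 10, 6 and 10 without. The counts of the arms overlapped, and the fold interval ran from 0.78 to 2.46.

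The 4 genes of the list that act on sphingosine or sphingosine 1-phosphate were not called either. Sphingosine kinases make it, SGPP1 removes its phosphate and the lyase SGPL1 splits it. Sphk1 (16.8 ± 1.34 against 17.8 ± 1.37 CPM) and Sphk2 (29.4 ± 1.25 against 27.8 ± 2.02 CPM, SD, n = 4 each) had log2 fold changes of -0.08 and 0.09. Sphk2 made up 66.8% ± 2.22 and 64.1% ± 2.45 of the kinase RPKM. Sphk2 shares exon bases with Rpl18 (373) and Dbp (539) on the other strand, so its level and share are uncertain for the same reason as the level of Ormdl2. Ormdl1 (411 with Gm28778), Galc (400 with Gm47439) and Cers4 (886 with Vmn2r-ps89) share exon bases with genes that are not in the count table. Sgpl1 had a fold interval from 0.96 to 1.11 and Sgpp1 one from 0.88 to 1.06.

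For 25 of the 28 transcripts not called, the unadjusted 95% interval of the fold lay between 0.8 and 1.25, a range chosen after the values were seen. The exceptions were Cers4, Degs2 and Acer2, the lowest of these 28 per length, whose data also allow larger differences. The levels of the 32 reached from 0.112 RPKM for Acer2 to 99.2 for Cers2, as means over the 8 libraries. Sptssb ranked as the fourth lowest at 1.78 RPKM, under Gba2 at 3.29 and above Degs2 at 0.99. Without antibody Sptssb (0.930 ± 0.0969 RPKM) and Degs2 (0.847 ± 0.282) did not differ beyond their spread, and with antibody they stood at 2.63 ± 0.412 and 1.13 ± 0.206 (SD, n = 4 each).

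**Figure D3:**
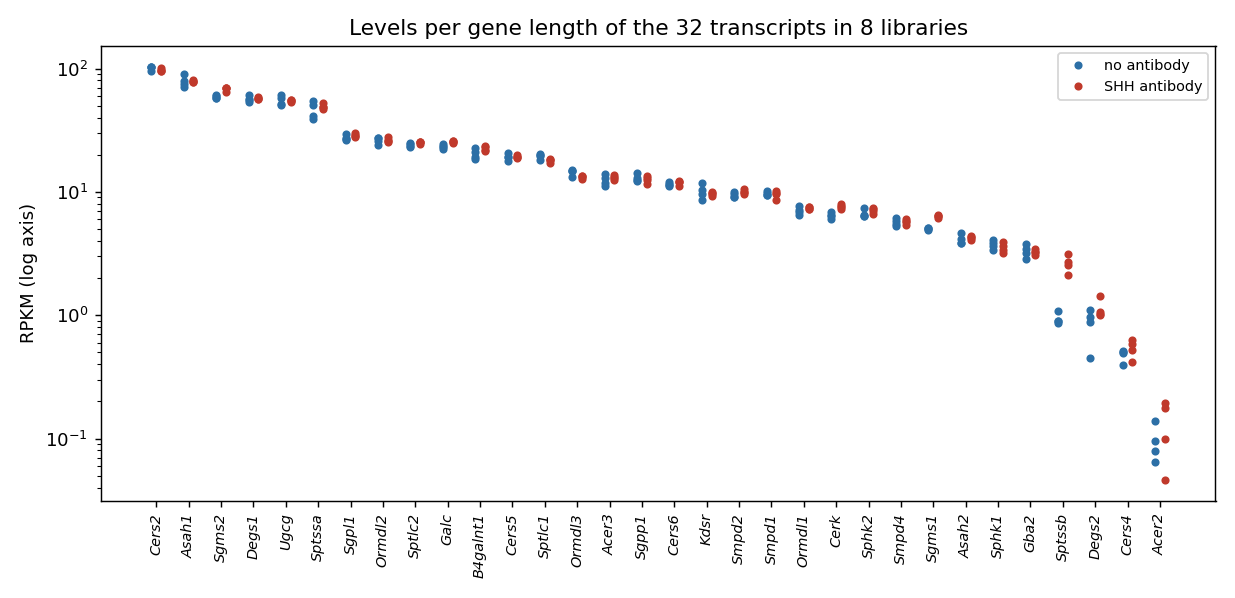
RPKM of each transcript in each library on a log axis, in order of the mean over the 8 libraries. Cers2 heads the order at 99.2 and Acer2 ends it at 0.112, and the gap between the arms is widest for Sptssb.

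The spread within an arm was larger without antibody for most of the 32. The median coefficient of variation (SD over mean of CPM) was 4.01% with antibody and 6.51% without, and it was larger without antibody for 24 of the 32. Over all genes tested the medians were 5.28% and 8.35%. Replicate 1 without antibody was the highest of its arm for 16 of the 32 transcripts and replicate 2 the lowest for 15. In the antibody arm, replicate 1 was the lowest for 16. None of these counts of transcripts was made over all genes tested, so they show nothing particular to the list.

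Among 49 other genes of sphingolipid metabolism and transport found in the table, 36 were tested, 5 rose and 1 fell. That is 16.7% called in either direction, where 8.4% of all genes were, and their median log2 fold change was 0.05. The arms did not overlap in 10 of the 36 (27.8%, against 14.3% of all genes). This list too was chosen with earlier results of these data known, so its shares carry no test. B4galt6, a lactosylceramide synthase that works on the product of UGCG, stood at 259, 263, 268 and 256 CPM with antibody and at 200.2, 219.7, 219 and 227 CPM without (1.21-fold, adjusted p = 0.000609). St3gal5, which adds sialic acid to lactosylceramide to make the ganglioside GM3, stood at 60.8, 57.3, 58.1 and 55.8 CPM and at 47.6, 50.3, 50.3 and 46.8 CPM (1.19-fold, adjusted p = 0.00382). In both genes every antibody library lay above every other library. Plekha8, whose protein carries glucosylceramide through the Golgi, rose 1.21-fold (adjusted p = 0.00405).

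Sgpp2, a second sphingosine 1-phosphate phosphatase, stood at 15.0, 14.9, 14.4 and 13.2 CPM with antibody and at 8.57, 10.02, 10.3 and 10.6 CPM without. The arms were well apart, with the largest fold of the 5 genes that rose, 1.46 (adjusted p = 0.000672). Its paralogue Sgpp1 had a log2 fold change of -0.05. Smpd3, a neutral sphingomyelinase linked to exosome release, rose 1.19-fold (adjusted p = 0.00771), and was not called on log2(RPKM + 1) (adjusted p = 0.0529) or log2(RPKM + 0.1) (adjusted p = 0.0524), within 0.000207 to 0.0529 over 20 settings. Abcc1, a broad exporter that also moves sphingosine 1-phosphate, fell from 124 ± 5.47 to 105 ± 1.82 CPM (SD, n = 4 each; log2 fold change -0.24 ± 0.05 SE, adjusted p = 0.0019). B4galt5, the other lactosylceramide synthase, had a log2 fold change of 0.02 and the ceramide carrier gene Col4a3bp one of 0.12 (adjusted p = 0.221).

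The 13 genes too low to test included Sptlc3, Cers1, Acer1, Enpp7 and S1pr5, which had 0 counts in every library. A count of 3 corresponds to 0.190 to 0.300 CPM here. The largest count of the 8 others was 13. Of the 5 receptors of sphingosine 1-phosphate, S1pr2 was the 1 tested, at 18.0 ± 0.604 and 17.2 ± 1.92 CPM (SD, n = 4 each; adjusted p = 0.677).

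Genes that supply the substrates of SPT and the ceramide synthases are the next group. Of 20 genes tested 6 fell and 1 rose, 35% in either direction against 8.4% of all genes. This list was chosen with earlier results of these data known, so its share describes it and is no test. Those that fell make or import serine or interconvert it with glycine: Phgdh, Psat1, Psph, Shmt2, Slc1a4 and Slc1a5, with log2 fold changes from -0.66 for Psph to -0.31 for Slc1a5. Phgdh, which starts serine synthesis, went from 205 ± 9.12 to 157 ± 3.89 CPM (SD, n = 4 each; adjusted p = 9.05e-06). Shmt1, the cytosolic counterpart of Shmt2, had a log2 fold change of -0.01. On the fatty acid side Acsl3, an acyl-CoA synthetase, was called as higher (1.14-fold, adjusted p = 0.0338), a call kept in 11 of 20 other settings (adjusted p 2.09e-07 to 0.115). It was lost without any 1 of the antibody libraries and without replicate 2 or replicate 3 of the other arm. Fasn (-0.07) and Acaca (0.07) were not called.

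**Figure D4:**
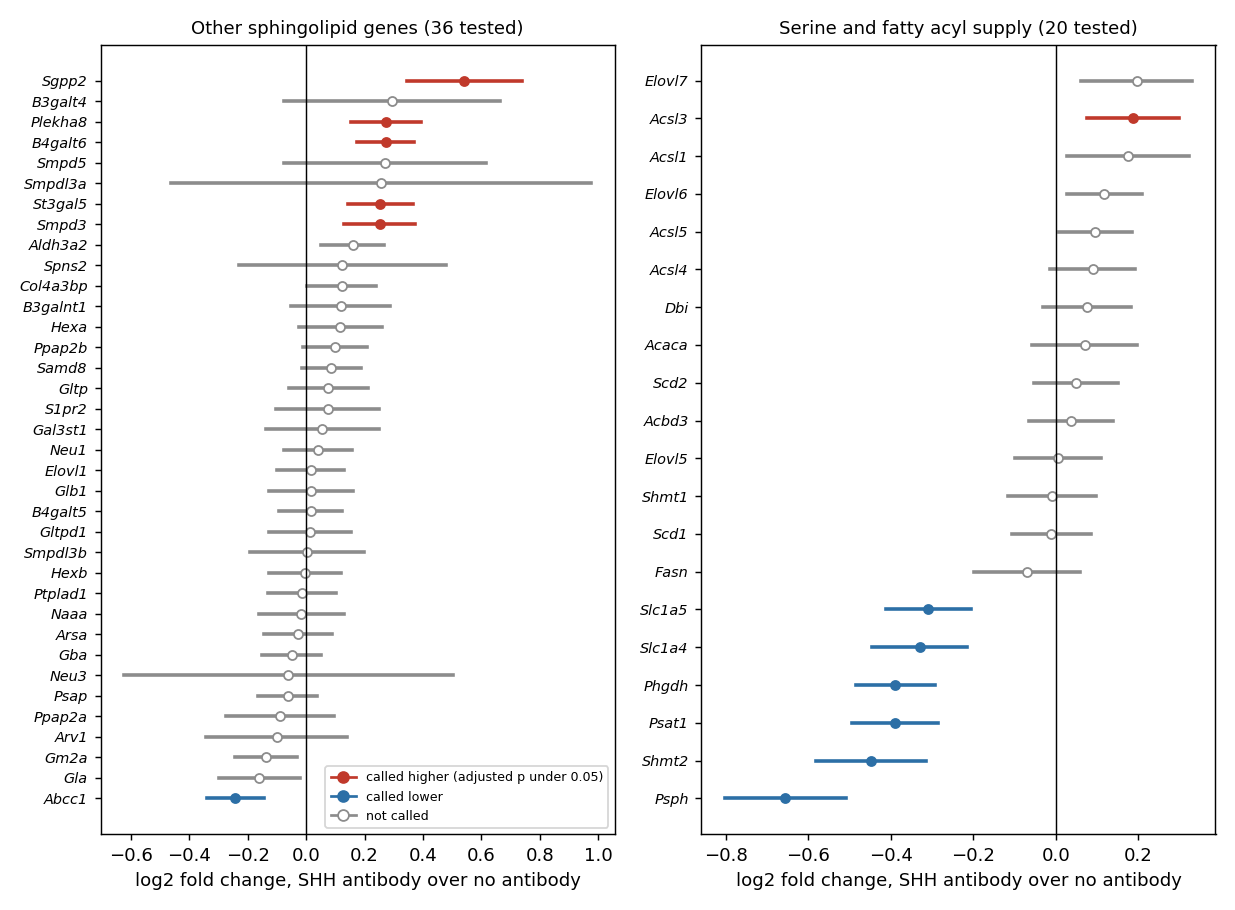
Log2 fold changes with unadjusted 95% intervals of the 36 other sphingolipid genes and the 20 supply genes tested, SHH antibody over no antibody. Sgpp2, Plekha8, B4galt6, St3gal5 and Smpd3 are filled on the right and Abcc1 on the left, and the 6 serine genes lie below -0.3.

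The calls of Sptssb, Sgms1 and Sgms2 were kept in all 20 other settings and that of Cerk in 17. Sptssb had log2 fold changes from 0.90 to 1.56 over them. The lowest value was on log2(RPKM + 1), a scale that compresses low levels by its pseudocount. Sgms1 ran from 0.28 to 0.38 and Sgms2 from 0.18 to 0.22. Over these settings the adjusted p reached 0.00911 for Sgms1 and 0.0495, just under the threshold, for Sgms2. With every library thinned in a single random draw to the smallest total, which removes the difference in depth, 4 of the 32 were again called as higher. Over all genes 983 were called in either direction after thinning. Without replicates 1 and 4 of the arm without antibody, 7 were called as higher and none as lower: Sptssb, Sgms1, Sgms2, Galc, Sptssa, Acer3 and Asah1. In that setting 2263 genes were called in either direction over all genes, against 1144 with all 8 libraries. For Galc, Sptssa, Acer3 and Asah1 the libraries left out were the highest of their arm, which by itself raises the fold. Replicates 1 and 4 had the lowest voom sample weights of the 8 libraries, 0.352 and 0.596. They were also the most unlike pair of their arm (chi-square per degree of freedom 10.5), and leaving both out leaves 2 libraries there. The part of these 2 libraries' own differences in the count of 7 was not tested.

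**Figure D5:**
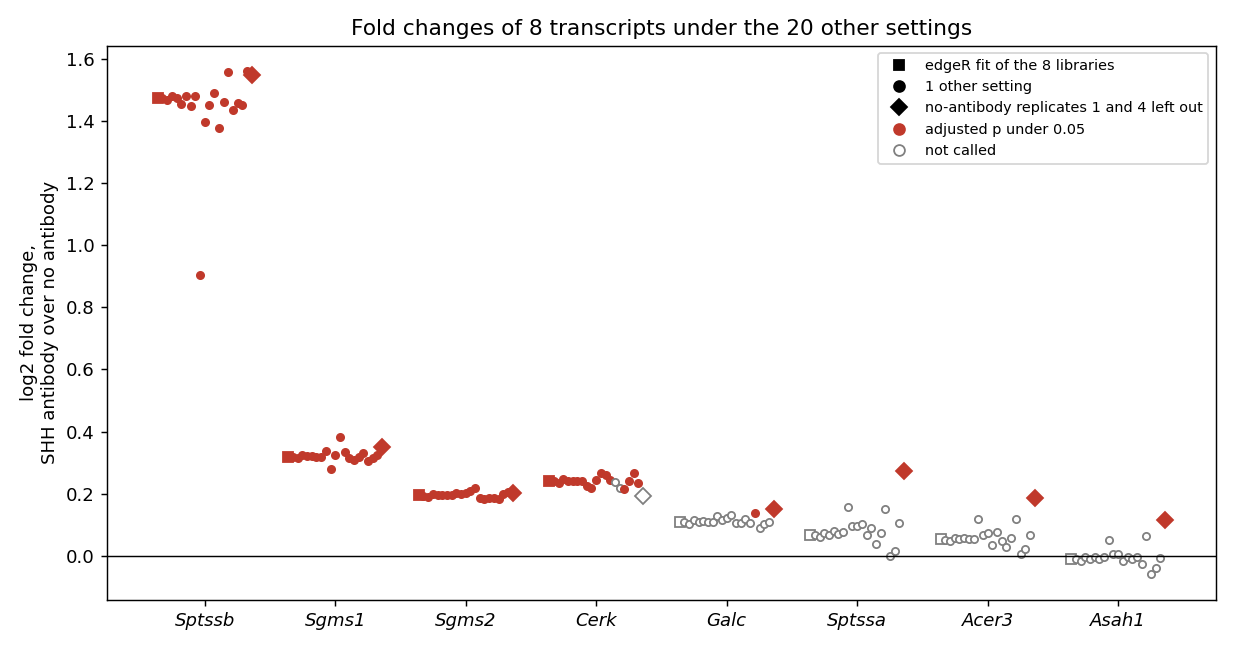
Log2 fold change of 8 transcripts in the fit of the 8 libraries (square), in 19 other settings (circles) and without replicates 1 and 4 of the arm without antibody (diamond), filled where the adjusted p was under 0.05. Sptssb, Sgms1 and Sgms2 are filled throughout, Cerk has 3 open symbols, and Sptssa, Acer3 and Asah1 are filled at the diamond alone.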

How the data were processed

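PolyA RNA of sorted cancer cells was measured in 8 strand-specific libraries, 4 per arm. Per the submitters' processing notes, CASAVA 1.8.2 and TopHat2 2.0.9 were used with GRCm38. The counting tool, annotation release and strand setting are not given there or in the labels. The authors deposited raw counts per Ensembl gene and RPKM values. The deposited RPKM equalled count over 1 gene length and library total in all 13172 genes checked, with implied lengths equal within 0.5 bases.

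edgeR 4.0.16 (R 4.3.3) tested the counts (TMM, filterByExpr, quasi-likelihood F test, arm as the only term, Benjamini-Hochberg over 13626 genes, threshold 0.05). Standard errors come from the F statistic, and intervals are unadjusted 95% intervals. They take in the spread between libraries as well as counting error, whereas count floors cover counting error only. Alternatives were RLE and upper quartile scaling, other filters, the replicate number as a block, DESeq2 1.42.0, limma 3.58.1 (voom, also with sample weights, and log2 RPKM), thinning, and left-out libraries. The genes and lists were chosen with earlier results of these data known, named genes being all 32 (each library for those called in any setting and the highest and lowest per length) and the called genes of the other lists; a few uncalled counterparts were named after their values were seen. Protein sequences were not used here. Replicates of an arm differed by more than sampling noise. A further element of the genotype, shared by both arms, is not reported here.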

Additional observations from a re-analysis of the deposited data

Results flagged for a closer look

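In 7 of 78 groups of 4 libraries checked, 1 library lay far from the other 3, where chance gives about 1 in 20. Sptssb was high in replicate 4 without antibody (1.92 CPM, next 1.60), which still lay under every antibody library. Sgms2 was low in antibody replicate 1 (376 CPM, next 406), the library nearest to the other arm. Cers5 was high in antibody replicate 2 (97.7 CPM, next 93.3) and Degs2 in antibody replicate 3 (5.13 CPM, next 3.81). Replicate 1 without antibody was low for Cers4 (2.10 CPM, next 2.60), high for Sgpl1 (185 CPM, next 167) and high in stellate and fibroblast markers (0.00463% of counts, next 0.00277%).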

How the results depend on the processing

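The count of called genes, 1144 in all, was 675 on log2(RPKM + 1) and 670 on log2(RPKM + 0.1), and 2263 were called without replicates 1 and 4 of the arm without antibody; leaving out 1 library gave 679 (antibody replicate 2) to 1485 (replicate 1 without antibody), with 695 without antibody replicate 3. Members called as higher numbered 3 to 5 without 1 library and 7 without both libraries named, and members called as lower 0 throughout. Of the other sphingolipid genes 1 to 2 were called as lower without 1 library, 2 with voom sample weights and 2 without both libraries. Asah1 turned from -0.01 to 0.11 without both. The cause of these shifts was not tested. Among 638 fits of members in 20 settings, 35 changed sign with no call on either side, in 13 members. RLE and upper quartile scaling changed no member's call. With the replicate block 1005 genes and 4 members were called, and no member's call changed; same-numbered libraries did not deviate together (correlations -0.0285 to 0.00662), so the numbers were not taken as pairs. Transcripts under 100 counts per library (Sptssb, Degs2, Cers4, Acer2) carry the widest intervals.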
